A study of Mus musculus with 18 samples.

Results

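Loss of Nsd1 was examined in 6 RNA-seq libraries of E14 mouse embryonic stem cells (mESCs) taken 2 days into monolayer differentiation, out of 18 libraries in all. They were chosen by their labels as the day 2 samples, 2 of WT cells, 2 of the Nsd1-KO line KO-1 and 2 of the Nsd1-KO line KO-2, and the other 12 libraries are of the same lines at day 0 and day 4. E14 is an established line of mESCs that is kept in serum with leukemia inhibitory factor (LIF) on a layer of inactivated mouse embryonic fibroblasts (MEFs) or on gelatin-coated plates. By the study's text, differentiation was begun by taking away both LIF and the MEFs, and all 6 libraries share that withdrawal. KO-1 and KO-2 each grew from 1 edited cell and lack exon 5 of both Nsd1 alleles, and by the study's methods they were made in E14 cells whose endogenous Nsd1 carries a C-terminal 3×Flag tag. Each line is thus 1 clone, and what differs between a clone and WT for another reason than Nsd1 cannot be told apart from the KO when both clones share it. The labels call replicates 1 and 2 biological and do not say that they came from separate cultures. A legend of the study's supplement calls 2 RNA-seq replicates of mESCs independent, without naming separate cultures. The p-values thus measure the spread between libraries within groups, pooled over all 18 libraries of the 3 days. In the comparison of KO with WT both clones form 1 group, so the 4 KO libraries of day 2 come from 2 clones.

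Embryonic stem cells in LIF hold a naive state that resembles the epiblast before implantation, kept by a network of transcription factors that includes Klf2, Klf4, Esrrb, Tfcp2l1 and Nanog. When LIF is withdrawn, ERK and other signals switch that network off, and cells pass through a formative state marked by Otx2, Pou3f1 and Fgf5 before they take up a germ layer fate. Nsd1 is a methyltransferase that places the dimethyl mark on lysine 36 of histone H3, a mark of open and intergenic chromatin that guides DNA methylation and limits the spread of Polycomb marks.

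Values are given as normalized counts per library, that is, counts divided by the size factors of the authors, and as log2 fold changes of the deposited variance stabilized (VST) values, a scale that compresses differences between weakly expressed genes. The WT libraries of day 2 held 9309874 and 9356867 counts on genes, the KO-1 libraries 15278867 and 14900945, and the KO-2 libraries 19445827 and 14595828. The WT libraries were the shallower ones, where 1 count is worth 1.63 and 1.62 normalized counts against 0.78 to 1.05 in the KO libraries, and their 20 genes with the most counts took a larger share of all counts (8.06% and 8.21%, against 6.46% to 7.07% in the KO libraries). KO was compared with WT by limma with Benjamini-Hochberg adjustment over all 20703 genes, and a call required an adjusted p below 0.01 together with a log2 fold change beyond 0.58 in either direction. By that rule 831 genes (4.01% of all genes) were higher and 490 (2.37%) lower in the KO libraries, 6.38% together. Of the 1321 called genes, 62.9% were higher, a share that was 73.9% after centring of every library and 43.2% by limma-voom on the recovered counts, where all genes had a median log2 fold change of −0.142. In 1320 of them all 4 KO libraries lay on one side of both WT libraries, as they did in 57.5% of all genes. The median log2 fold change was −0.016 over all genes, 0.77 over the genes called higher and −0.69 over those called lower.

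Nsd1 itself was lower in both KO lines. It had 2773 and 3344 normalized counts in WT, 854 and 927 in KO-1 and 964 and 1024 in KO-2. No KO library reached either WT library, with a log2 fold change of −1.27 (SE 0.11, with a Benjamini-Hochberg adjusted p of 1.82e-08 in limma). The remaining counts fall on a gene of which only 1 exon was removed, so they do not show an intact transcript. Among 10 genes of H3K36 methylation, Nsd2, which places the same mark as Nsd1, was called higher, with 1845 and 2091 normalized counts in WT, 3093 and 3419 in KO-1 and 3614 and 4122 in KO-2. Its log2 fold change was 0.70, and the groups did not overlap. Kdm2b, a demethylase of H3K36 that also recruits Polycomb complexes to CpG islands, was called lower (−0.63). The other 7 genes, among them the H3K36 trimethylase Setd2 (0.47) and Nsd3 (0.28), were not called.

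The naive pluripotency network was higher in the KO libraries. Of its 15 genes, 11 were called higher and 0 lower, and the median log2 fold change of the 15 was 0.82. Klf2, a transcription factor of the network, had 332 and 387 normalized counts in WT, 3268 and 3134 in KO-1 and 3139.6 and 2948 in KO-2. Esrrb, a nuclear receptor that sustains self-renewal, had 437 and 419.8 normalized counts in WT, 2639.6 and 2786 in KO-1 and 2718 and 2729 in KO-2. Zfp42, the Rex1 gene used as a reporter of the naive state, had 669.7 and 716 normalized counts in WT, 3856 and 3525 in KO-1 and 3491 and 3568 in KO-2. In each of these 3 genes the KO libraries of the clones lay close together and several-fold above WT. The log2 fold changes were 2.07 for Klf2 (SE 0.07, with a Benjamini-Hochberg adjusted p of 2.29e-14 in limma), 1.78 for Esrrb and 1.75 for Zfp42, and the ratios of mean normalized counts 8.68, 6.35 and 5.21. Tfcp2l1, which LIF signals induce, had 227 and 303 normalized counts in WT, 1579.6 and 1996 in KO-1 and 1592 and 1759 in KO-2, a log2 fold change of 1.58.

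The other members of the network called higher were Nr5a2 (1.46), Klf4 (1.36), Dppa3 (1.08), Tcl1 (0.82), Nr0b1 (0.81), Nanog (0.70) and Gbx2 (0.66). Nanog had 1067 and 1129.7 normalized counts in WT, 2604 and 2632 in KO-1 and 1745 and 1712 in KO-2, so KO-1 stood above KO-2 and both above WT. The 4 genes not called were Tbx3 (0.54), Prdm14 (0.44), Klf5 (0.03) and Fgf4 (−0.19). Prdm14, which represses Fgf receptor signalling and Dnmt3b, had 3.26 and 3.24 normalized counts in WT, 54.6 and 61 in KO-1 and 49.2 and 54.8 in KO-2, a difference that is compressed on the VST scale at so few counts. With limma-voom 13 of the 15 were called higher, where 10.3% of all genes were. Fgf4, whose product drives ERK in these cells, thus stood at the other end of the list from Klf2.

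**Figure D1:**
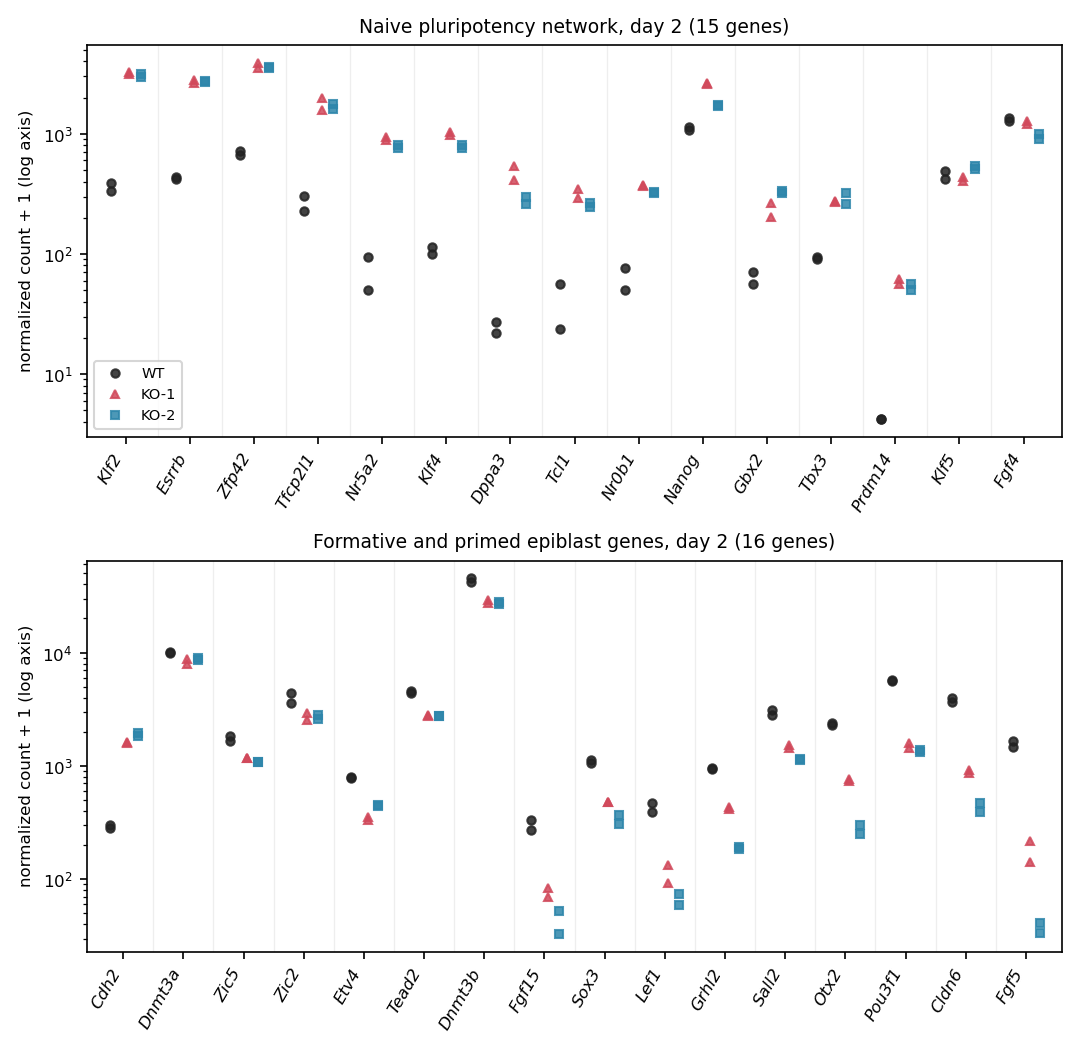
Normalized counts plus 1 (log axis) of the 15 genes of the naive pluripotency network and the 16 formative and primed epiblast genes in the 2 WT (circles), 2 KO-1 (triangles) and 2 KO-2 (squares) libraries of day 2, ordered by log2 fold change. In 13 of the 15 naive genes all KO libraries stand above both WT libraries, and in 15 of the 16 formative genes all stand below, Cdh2 being the one that stands above.

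Surface and other markers of the naive state followed with 8 of 11 called higher and a median of 0.81. Fbxo15, an F-box gene used as a marker of pluripotent cells, had 222 and 125 normalized counts in WT, 1769 and 1632 in KO-1 and 1497 and 1322 in KO-2, and its log2 fold change was 1.70. Zfp57, a zinc finger protein that protects imprints, rose by 1.29 on the log2 scale, the adhesion molecule Jam2 by 1.22 and the secreted phosphoprotein Spp1 by 1.17. Not called were Gdf3 (0.45), Pecam1 (0.27) and Dppa5a (0.03), of which Dppa5a has the most normalized counts of the list. Of 12 genes of the LIF and STAT3 pathway, 6 were called higher and 0 lower, and by limma-voom 9 and 0. Tfcp2l1, Klf4 and Gbx2 belong to the naive network as well, and the others are both chains of the LIF receptor and the kinase gene Pim3 (0.59). Lifr had 199 and 272 normalized counts in WT, 993 and 1152 in KO-1 and 1423 and 1522 in KO-2 (log2 fold change 1.32). Il6st, the gp130 chain shared with other cytokines, had 805 and 853 normalized counts in WT, 2498 and 2657 in KO-1 and 2842 and 3162 in KO-2 (1.27). The groups did not overlap in either gene. Socs3, a direct STAT3 target and feedback inhibitor, was at 114 and 146 normalized counts in WT, 129 and 119 in KO-1 and 155 and 124 in KO-2 and was not called (0.01). The kinase genes Jak1 (0.54) and Jak2 (0.49) and Stat3 itself (0.32) were under the threshold.

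The core pluripotency factors were called in both directions. Sox2 was called higher, with 2032 and 2063 normalized counts in WT, 6799 and 6817 in KO-1 and 6294 and 6339 in KO-2 and a log2 fold change of 1.43. Pou5f1, the Oct4 gene and partner of Sox2 at many of its sites, was called lower, with 9384 and 8388 normalized counts in WT, 6072 and 5422 in KO-1 and 4861 and 4710.2 in KO-2 and a log2 fold change of −0.69, a call that was lost for KO-1 alone against WT (−0.58, just short of the threshold). Both factors, which define pluripotent cells, were well expressed in all 6 libraries. The other 6 of the 8 factors, Lin28a and Sall4 among them, were not called. Of 16 factors known to promote exit from the naive state, such as Tcf7l1 and the folliculin gene Flcn, 1 was called, beside 6.38% of all genes in either direction: Rbpj, the DNA-binding partner of Notch, which was higher (1.01). By limma-voom and with quantile normalization 2 of the 16 were higher and 1 lower, 1 was lower for KO-1 alone and without either KO-2 replicate, and the median of the list was 0.05.

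Genes of the formative and primed epiblast were lower. Of 16 genes, 11 were called lower and 1 higher, with a median log2 fold change of −0.78. Fgf5, the growth factor most used as a marker of this state, had 1674 and 1467 normalized counts in WT, 216 and 140.3 in KO-1 and 39.8 and 32.7 in KO-2. It fell by 1.97 on the log2 scale (SE 0.18, with a Benjamini-Hochberg adjusted p of 2.76e-08 in limma), a ratio of mean normalized counts of 14.6, and the KO-2 libraries lay below the KO-1 libraries. Otx2, a homeobox factor that directs Oct4 to formative enhancers, had 2275 and 2415 normalized counts in WT, 738 and 770.5 in KO-1 and 300.4 and 251 in KO-2. The same order, WT above KO-1 above KO-2, held for Otx2, and its log2 fold change was −1.53. Pou3f1, a POU factor induced early in this transition, had 5645 and 5713 normalized counts in WT, 1433 and 1586 in KO-1 and 1323 and 1369.8 in KO-2, with no such gap between the clones and a log2 fold change of −1.64. Cldn6, a tight junction claudin of the epiblast, had 3965 and 3692 normalized counts in WT, 917 and 864 in KO-1 and 466 and 394 in KO-2 (−1.90).

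Called lower by smaller amounts were Sall2 (−0.91), Grhl2 (−0.91), Sox3 (−0.83), Lef1 (−0.83), Fgf15 (−0.73), Dnmt3b (−0.64) and Tead2 (−0.59). The exception was Cdh2, the N-cadherin gene, which had 280.3 and 301 normalized counts in WT, 1578 and 1616 in KO-1 and 1839 and 1957 in KO-2 and was called higher (1.53). Zic2 (−0.46), Zic5 (−0.46), Etv4 (−0.56) and Dnmt3a (−0.20) were not called. The call of Dnmt3b ended with quantile normalization (−0.33), and the difference between these 2 de novo DNA methyltransferases was not tested. Dnmt3l, the cofactor of both, was higher, with 3811 and 3511 normalized counts in WT, 11749 and 10972 in KO-1 and 13167 and 12139 in KO-2 and a log2 fold change of 1.56. Among the 9 writers and erasers of DNA methylation, Tet3 was also called higher (0.63), and Dnmt1 (0.38), Uhrf1 (0.52) and Tet1 (0.50) were not called. None (0) of the 12 genes of Polycomb repressive complex 2, which writes H3K27me3, was called by limma on the VST values. Of the 12, 11 had an unadjusted p under 0.05, as 52.3% of all genes did. Values were positive in 10 and negative in 2, and the highest, Phf19 (0.57), was just under the threshold. Limma-voom called 3 higher. By limma, 2 were higher without KO-1 replicate 1, for KO-2 alone and after centring. Without KO-1 replicate 2 and with quantile normalization, 1 was higher. The catalytic subunit Ezh2 had a log2 fold change of 0.28.

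**Figure D2:**
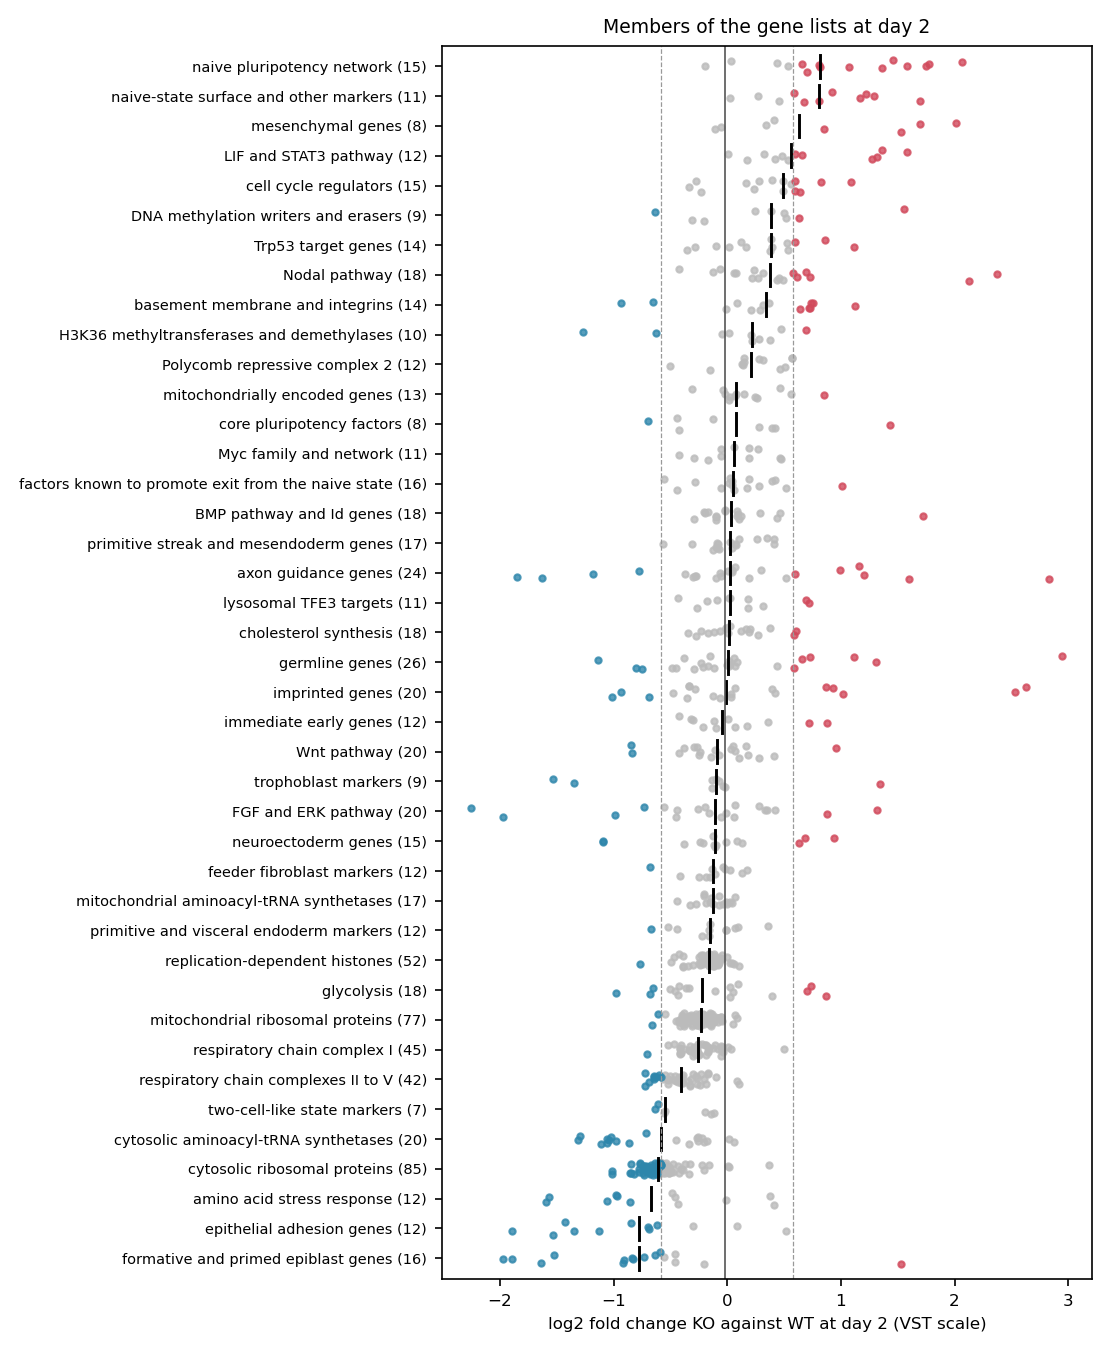
Log2 fold change of KO against WT at day 2 (VST scale, horizontal axis) of the members of 41 gene lists and families (number of members in brackets), each point 1 gene, red called higher, blue called lower and grey not called. Black bars mark the median of a list, the thin line the median of all genes (−0.016) and the dashed lines the threshold of 0.58. The lists are ordered by their median, from −0.78 for the formative genes to 0.82 for the naive network.

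Markers of later and of other cell types were mostly weak. Of 17 primitive streak and mesendoderm genes 0 were called by limma on the VST values, with 6 at an unadjusted p under 0.05. Limma-voom called 3 higher and 1 lower. By limma, 1 was lower without KO-1 replicate 1, for KO-2 alone and with the VST of thinned counts. The median of the 17 was 0.03, and 12 of them had under 100 normalized counts on average in both groups. The log2 fold changes ran from −0.56 (Eomes), just under the threshold, to 0.41 (Sp5). T, the brachyury gene of the primitive streak, had 15 and 13 counts in WT, 0 and 4 in KO-1 and 2 and 0 in KO-2. These are counts before division by the size factors, where 1 count is worth 1.63 and 1.62 normalized counts in WT. In the KO libraries it is worth 0.78 to 1.05, so the gap in T is wider in normalized counts. Wnt8a and Wnt3 were the 2 genes of the list with the highest mean VST value, at log2 fold changes of 0.11 and 0.07. In 15 neuroectoderm genes the calls were split, 3 higher and 2 lower, and by limma-voom 3 and 4. Tubb3 (0.94), Sox1 (0.68) and Sox21 (0.63) were higher, and the intermediate filament gene Nes (−1.09) and Sox11 (−1.09) lower. Nes had 2161 and 2337 normalized counts in WT, 801 and 890.4 in KO-1 and 688 and 708 in KO-2. Sox1, the earliest of these neural factors, had 22.8 and 30.8 normalized counts in WT, 185 and 162 in KO-1 and 212 and 234 in KO-2.

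Of the 12 endoderm markers Dab2 was called, lower (−0.67), and limma-voom called 4 lower and 1 higher. Of 9 trophoblast markers Tfap2c, which naive cells also express, was called higher (1.35), and the keratins Krt8 (−1.35) and Krt18 (−1.53) lower. The 12 feeder fibroblast markers summed to 1530.1 and 1412 normalized counts in WT, 973 and 917 in KO-1 and 1151 and 1100.1 in KO-2. The marker with the most counts was Col1a1, a collagen of fibroblasts, with 459.5 and 408 normalized counts in WT, 269 and 319 in KO-1 and 362 and 365 in KO-2. Of the 12 markers, 6 had under 100 normalized counts on average in both groups, 0 were without a count in all 6 libraries, and Thy1 was the one called (−0.68). The sum was thus lower in every KO library than in both WT libraries, and its part in the other differences was not tested. The 7 markers of 2-cell-like cells, a rare state of stem cell cultures, summed to 531 and 502 normalized counts in WT, 73.1 and 46.8 in KO-1 and 55.4 and 59 in KO-2, far lower in the KO libraries. Zscan4f (−0.64) and Zscan4c (−0.61) were called lower (5 of the 7 by limma-voom), and as members of a cluster of near-identical copies their counts are uncertain one by one. In bulk RNA, fewer cells of a type and less RNA per cell cannot be told apart, here and in the other lists.

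Epithelial adhesion genes were lower and several mesenchymal genes higher. Of 12 epithelial genes, 9 were called lower and 0 higher, with a median of −0.77. Epcam, an adhesion protein of epithelia and stem cells, had 4263 and 4144 normalized counts in WT, 1921 and 1675 in KO-1 and 1409.8 and 1470.0 in KO-2 (log2 fold change −1.13). Cldn7, a claudin, had 808 and 742 normalized counts in WT, 90.7 and 80.3 in KO-1 and 46 and 35.8 in KO-2. Krt18, a keratin of simple epithelia, had 1238 and 1373 normalized counts in WT, 102 and 174 in KO-1 and 169 and 232 in KO-2. In both genes the KO libraries were far below WT, by 12.3 and 7.72 times in mean normalized counts, and the log2 fold changes were −1.42 and −1.53. Cdh1, E-cadherin and the gene with the most counts in the list, had 12875 and 12821 normalized counts in WT, 8589 and 8436 in KO-1 and 6902 and 6879.8 in KO-2, a smaller change (−0.70). Ocln (−0.85), Cldn3 (−0.69), Krt8, Krt19 (−0.62) and Cldn6, which the formative list also holds, were the other members called. Esrp1, a splicing regulator of epithelial transcripts, was at 0.52 and not called, and the tight junction scaffold Tjp1 (0.08) and Cldn4 (−0.30) were not called.

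Of 8 mesenchymal genes, 4 were called higher and 0 lower. Fn1, the matrix protein fibronectin, had 3481 and 4195 normalized counts in WT, 15174 and 17508 in KO-1 and 18019 and 18651 in KO-2 (log2 fold change 2.01). Zeb1, a repressor of E-cadherin, had 29.3 and 29.2 normalized counts in WT, 653 and 765 in KO-1 and 995 and 1046 in KO-2 (1.70). Vim (0.85) and Cdh2, which the formative list also holds, were the other calls. Snai1 (0.41), Snai2 (0.34), Zeb2 (−0.05) and Twist1 (−0.11) were not called, and limma-voom called 6 of the 8 higher. Among 14 genes of the basement membrane and its integrins, 6 were higher, led by Nid1 (1.12), Lama5 (0.75) and the fibronectin receptor chain Itga5 (0.74). The neighbouring collagen IV genes Col4a1 (−0.93) and Col4a2 (−0.65) were lower. Col4a1 had 1049 and 1117 normalized counts in WT, 299 and 406 in KO-1 and 328 and 349.8 in KO-2. Ap1m2, the epithelial form of a clathrin adaptor subunit and one of the 12 largest falls, had 935 and 893 normalized counts in WT, 78 and 30.5 in KO-1 and 18.7 and 27.4 in KO-2 (−1.72).

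**Figure D3:**
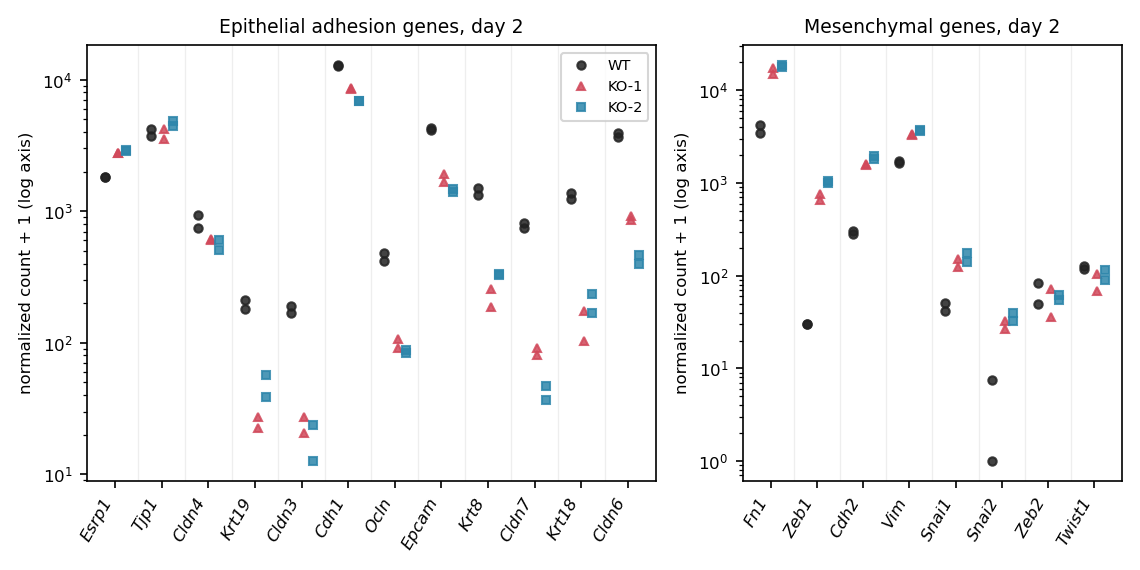
Normalized counts plus 1 (log axis) of 12 epithelial adhesion genes and 8 mesenchymal genes in the WT (circles), KO-1 (triangles) and KO-2 (squares) libraries of day 2. From Cldn4 to Cldn6 on the left, 10 genes have every KO library below both WT libraries. On the right, Fn1, Zeb1, Cdh2, Vim, Snai1 and Snai2, 6 of the 8, have every KO library above both.

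In the Nodal pathway, which patterns the epiblast, 6 of 18 genes were called higher and 0 lower. The largest changes were in the Nodal inhibitors. Lefty1 had 888 and 917 normalized counts in WT, 6721 and 6370.3 in KO-1 and 7786 and 7467 in KO-2. Its neighbour Lefty2 had 614 and 645 normalized counts in WT, 3959 and 3916 in KO-1 and 5314 and 5294 in KO-2. Both were over 7 times as high in the KO libraries, with ratios of 7.85 and 7.34 and log2 fold changes of 2.37 and 2.12. The ligand gene Nodal rose less (0.73), as did the receptor gene Acvr2b (0.69), the convertase Furin (0.61) and the transcription factor Foxh1 (0.58), and Smad2 (0.21), Smad3 (0.49) and the coreceptor gene Tdgf1 (−0.43) were not called. Without WT replicate 1, 3 of the 18 were called, and limma-voom called 10.

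In the FGF and ERK pathway 4 of 20 genes were called lower and 2 higher, and by limma-voom 7 and 3. Dusp9, a phosphatase that inactivates ERK, had the largest fall of all called genes. It had 5459 and 5888 normalized counts in WT, 767 and 740.0 in KO-1 and 757 and 729 in KO-2, a ratio of 7.58 and a log2 fold change of −2.25 (SE 0.07, with a Benjamini-Hochberg adjusted p of 6.43e-15 in limma). Dusp6, another ERK phosphatase that ERK itself induces, was lower (−0.99), as were the ligand genes Fgf5 and Fgf15. Fgfr2, a receptor, had 187 and 204 normalized counts in WT, 1088 and 1130.3 in KO-1 and 1158 and 1219 in KO-2 (1.32), and the early response gene Egr1 was also called higher (0.88). The feedback genes Spry4 (−0.06), Spry2 (0.33) and Etv5 (−0.45) were not called, so calls in both directions stood beside readouts of ERK that were not called.

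Of 20 Wnt pathway genes, Notum, a secreted enzyme that inactivates Wnt ligands, was called higher (0.96), and Tcf7 (−0.84) and Lef1, which carry Wnt signals to DNA, lower. Notum had 11.4 and 3.24 normalized counts in WT, 213 and 226 in KO-1 and 263 and 203 in KO-2. Axin2, the common readout of the pathway, was not called (−0.11). By limma-voom 2 of the 20 were higher and 6 lower. Of 18 genes of the BMP pathway and the Id family, 1 was called, beside 6.38% of all genes in either direction, and by limma-voom 3 were higher and 1 lower. The call was Tcf12, an E protein that Id proteins bind, with 911 and 943 normalized counts in WT, 3916 and 4146 in KO-1 and 4623 and 4802 in KO-2 (1.72). Ptch1, the Hedgehog receptor and a target of that pathway, was among the 12 largest rises, with 2180.3 and 2345 normalized counts in WT, 12373 and 13925 in KO-1 and 13153 and 13814 in KO-2 (2.28).

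Axon guidance genes changed in both directions. Of 24, 6 were called higher and 4 lower, and by limma-voom 8 in each direction. Ntn1, the secreted cue netrin-1, had 149.9 and 110.2 normalized counts in WT, 3119 and 3507 in KO-1 and 4149 and 4118 in KO-2 (log2 fold change 2.83, SE 0.09). It stood 28.6 times above WT in mean normalized counts. Its receptor genes split, with Neo1 called higher (1.00), Unc5b lower (−1.18) and Dcc not called (−0.28). The ephrin receptor gene Epha2 had 639 and 647 normalized counts in WT, 2464 and 2691 in KO-1 and 3515 and 3610.1 in KO-2 (1.60). Epha1, of the same receptor family, had 1621 and 1494 normalized counts in WT, 203 and 187 in KO-1 and 178 and 220.2 in KO-2 (−1.63), a change in the opposite direction. Sema6a, a transmembrane semaphorin, had 1524 and 1650.0 normalized counts in WT, 164 and 177 in KO-1 and 89.7 and 96.9 in KO-2 (−1.85).

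The other genes of the 12 largest rises were Dnajc6, a cochaperone that uncoats clathrin vesicles (2.41), the metalloprotease Adam19 (2.26), the protocadherin Pcdh19 (2.04) and Greb1l (2.02). Pcdh19 had 16.3 and 45.4 normalized counts in WT, 949.7 and 1108 in KO-1 and 1451 and 1417 in KO-2, the highest ratio of these rises at 39.9. The other genes of the 12 largest falls were the axonal kinesin Kif1a (−1.85), Enpp2, which makes the lipid mediator lysophosphatidic acid (−1.58), and Fndc3c1 (−1.54). Kif1a had 4238 and 4815 normalized counts in WT, 944 and 1026 in KO-1 and 740.4 and 719 in KO-2.

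Genes of the amino acid stress response were lower. Atf4, the transcription factor that translation stress and amino acid lack bring up and that induces the other genes of the list, had 1919.5 and 1644 normalized counts in WT, 365 and 305 in KO-1 and 222 and 202 in KO-2. Neither clone overlapped WT, with a log2 fold change of −1.60 and a ratio of 6.52. Of the 12 genes of the list, 6 were called lower and 0 higher, with a median of −0.67. Psat1, of serine synthesis, had 12891 and 12793 normalized counts in WT, 3886 and 3963 in KO-1 and 4045 and 3783 in KO-2 (−1.57). Chac1, which degrades glutathione, had 339 and 323 normalized counts in WT, 13.7 and 18.3 in KO-1 and 20.3 and 19 in KO-2 (−1.06). Its mean in WT was 18.6 times that in KO, a difference that the VST scale compresses. Phgdh (−0.98), the folate enzyme Mthfd2 (−0.97) and the pseudokinase Trib3 (−0.85) were the other calls. Asns (−0.46), Ddit3 (−0.48), Shmt2 (−0.44) and Slc7a11 (−0.01) were not called, and Sesn2 (0.38) and Ddit4 (0.41) had positive values.

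The genes that charge tRNAs were looked at next, a family chosen after its values were seen. Of the 20 genes that encode cytosolic aminoacyl-tRNA synthetases, 10 were called lower and 0 higher, with a median of −0.58. They were Nars, Cars, Sars, Gars, Yars, Aars, Iars, Mars1, Tars and Lars, from −1.31 to −0.71. Cars, which charges cysteine tRNA, had 3223 and 3259 normalized counts in WT, 1068 and 1059 in KO-1 and 954 and 889 in KO-2. Sars, for serine, had 7054 and 6609.6 normalized counts in WT, 2994 and 2706 in KO-1 and 2922 and 2725 in KO-2. The groups were far apart and the clones alike in both. The other 10, with values from −0.45 (Farsb) to 0.06 (Vars), were not called. Vars had 9075 and 9516 normalized counts in WT, 8909 and 9412 in KO-1 and 10381 and 10132 in KO-2. Of the 17 genes for mitochondrial synthetases 0 were called in either direction by limma on the VST values, where 8 had an unadjusted p under 0.05, and limma-voom called 1 lower. Their median was −0.13.

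Promoters from RefSeq on GRCm38.p6, from 250 bases before the start of a gene to 50 after it, were searched for the core of the amino acid response element, TGATGNAA, on both strands, so that a match on the other strand reads TTNCATCA, a motif that Atf4 is known to bind with its partners. Of the 32851 promoters on record, 3.97% held it. Of the 7 called synthetase genes with a promoter there, 5 held it (Aars, Gars, Iars, Tars and Yars), against 0 of 6 that were not called and 0 of 14 mitochondrial ones. In the stress list it was found in 2 of the 6 genes called lower, Chac1 and Trib3, and in 2 of the 6 not called, Asns and Slc7a11. Across all genes of the expression table with a promoter, 5.75% of those called lower, 2.51% of those called higher and 2.69% of those not called held it. The genes called lower include the synthetase and stress genes just counted, so these shares are not independent of them. These are counts of letters in a window, chosen after the values were seen and not tested. The windows of 4 genes called lower are shown from 250 bases before the start to 30 after it, 5′ to 3′ on the strand of the gene, with the match in capitals.
Chac1, chr2:119350992-119351271, GRCm38.p6, plus strand: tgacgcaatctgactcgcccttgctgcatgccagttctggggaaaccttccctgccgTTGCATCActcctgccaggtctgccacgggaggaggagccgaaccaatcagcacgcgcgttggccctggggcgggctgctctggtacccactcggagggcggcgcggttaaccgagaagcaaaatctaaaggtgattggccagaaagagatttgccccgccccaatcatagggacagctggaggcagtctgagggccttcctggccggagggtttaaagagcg
Trib3, chr2:152344031-152344310, GRCm38.p6, minus strand: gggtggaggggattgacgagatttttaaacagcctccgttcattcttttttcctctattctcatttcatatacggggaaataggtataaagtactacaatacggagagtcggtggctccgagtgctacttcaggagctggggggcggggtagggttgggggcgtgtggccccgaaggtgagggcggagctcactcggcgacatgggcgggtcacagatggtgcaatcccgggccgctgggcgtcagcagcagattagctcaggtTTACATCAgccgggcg
Gars, chr6:55037751-55038030, GRCm38.p6, plus strand: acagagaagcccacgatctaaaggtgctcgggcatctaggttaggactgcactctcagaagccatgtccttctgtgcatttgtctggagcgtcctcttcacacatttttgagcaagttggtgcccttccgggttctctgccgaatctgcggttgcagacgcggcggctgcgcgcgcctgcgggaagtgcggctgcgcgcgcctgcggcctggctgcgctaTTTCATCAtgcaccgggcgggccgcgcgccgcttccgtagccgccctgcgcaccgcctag
Yars, chr4:129189653-129189932, GRCm38.p6, plus strand: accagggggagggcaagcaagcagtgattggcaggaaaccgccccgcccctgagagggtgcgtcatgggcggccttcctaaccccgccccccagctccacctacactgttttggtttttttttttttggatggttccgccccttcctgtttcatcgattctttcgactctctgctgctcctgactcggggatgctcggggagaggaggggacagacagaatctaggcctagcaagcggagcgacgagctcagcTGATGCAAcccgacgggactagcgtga
The match lay 193 bases before the start in Chac1 and 30 before it in Gars, and 14 bases after the start in Trib3 and 3 after it in Yars.

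**Figure D4:**
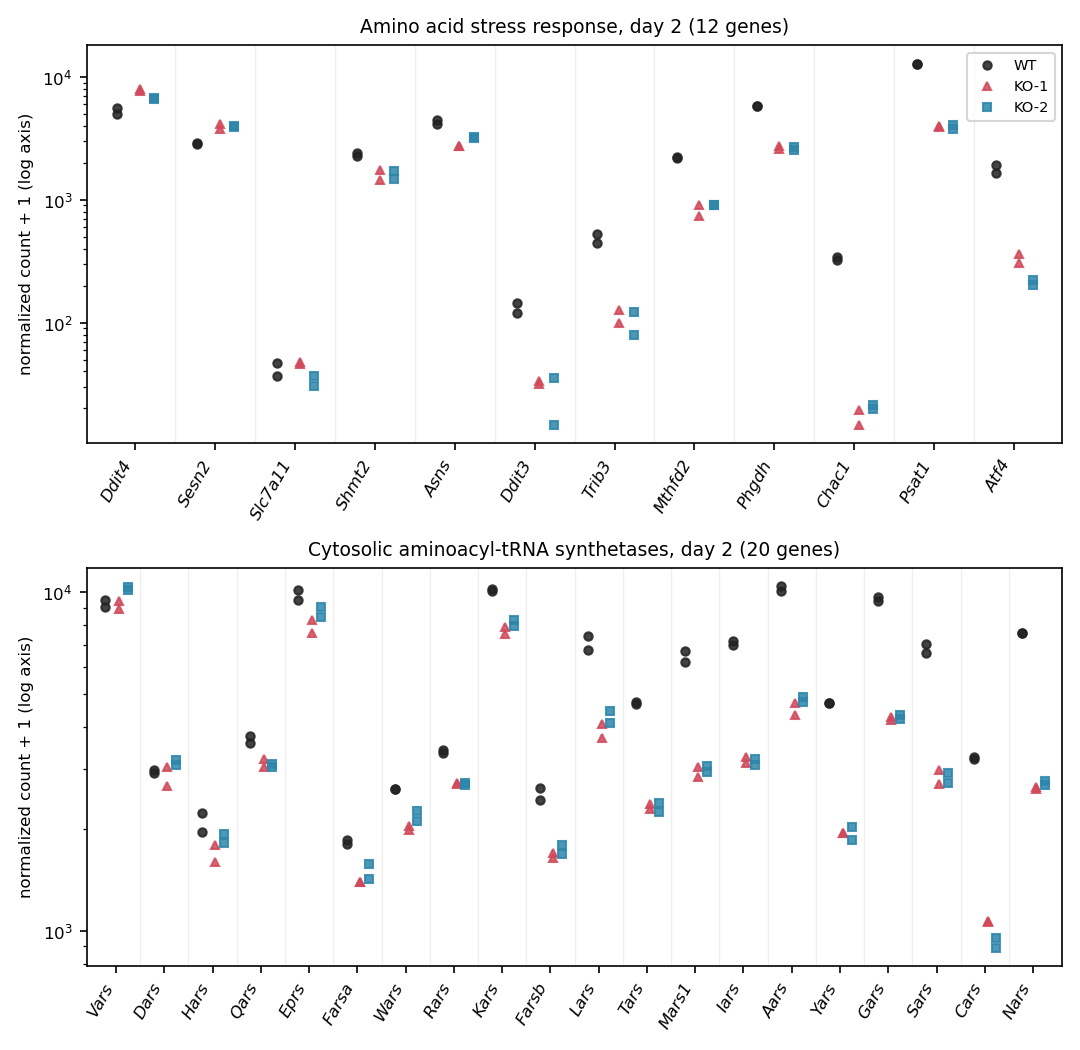
Normalized counts plus 1 (log axis) of 12 genes of the amino acid stress response and 20 cytosolic aminoacyl-tRNA synthetase genes in the WT (circles), KO-1 (triangles) and KO-2 (squares) libraries of day 2. From Lars to Nars in the lower panel, 10 genes show both KO lines well below WT, and in Vars and Dars the KO libraries overlap WT.

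Many genes for cytosolic ribosomal proteins were lower too. Of 85, 50 were called lower and 0 higher, with a median of −0.61. They were led by Rps14 (−1.02), Rpl41 (−1.01), Rps7 (−0.86) and Rpl17 (−0.85). The genes summed to 1044080.0 and 895185 normalized counts in WT, 725027 and 629354 in KO-1 and 564364 and 529994 in KO-2. Replicate 1 was above replicate 2 in each of the 3 lines, and KO-1 was above KO-2, but the lower WT sum was above the highest KO sum. The count of calls moved with the libraries and the fit, to 12 without WT replicate 1, 33 without KO-2 replicate 2, 14 for KO-1 alone against WT, 32 with the 6 libraries of day 2 fitted alone and 23 with quantile normalization. Reads of these genes can also be shared with their many pseudogenes. Of 77 mitochondrial ribosomal protein genes, 2 were called lower, Mrpl12 and Mrps9, a share close to the 2.37% of all genes, and limma-voom called 20 lower, where 13.6% of all genes were. Of 42 genes for complexes II to V of the respiratory chain 9 were called lower, among them Uqcrq (−0.72) and Atp5g1 (−0.69), but 1 without WT replicate 1, 2 without KO-2 replicate 2, 2 for KO-1 alone, 15 for KO-2 alone, 3 with the 6 libraries alone and 4 after centring. Of 45 genes taken as complex I, Ndufb8 was called lower (−0.71), a share of 2.22% that is close to the 2.37% of all genes. By limma-voom 8 were lower and 1 higher, where 13.6% of all genes were lower. The lower calls of that list were 2 without KO-1 replicate 1, 2 with quantile normalization, 3 for KO-2 alone and 0 for KO-1 alone.

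Among 13 genes of the mitochondrial genome mt-Nd5 was called, higher (0.85), with 17238 and 18808 normalized counts in WT, 29519.6 and 38057 in KO-1 and 30406 and 34897 in KO-2. Without KO-2 replicate 1, for KO-1 alone, after centring and with quantile normalization, 2 of the 13 were called higher. The sums of the 13 were 169170.0 and 169994 normalized counts in WT, 223000.0 and 248279 in KO-1 and 203998 and 224650.0 in KO-2. The mitochondrial ribosomal RNA gene mt-Rnr2 had 4981 and 6273 normalized counts in WT, 10944 and 14598 in KO-1 and 12235 and 15001 in KO-2 and was higher in the KO libraries (1.14), whereas mt-Rnr1 had 4975 and 6459 normalized counts in WT, 3941 and 4834 in KO-1 and 4512 and 5323 in KO-2 (−0.26). Transcripts of replication-dependent histones, which lack a poly(A) tail and enter such libraries in small amounts, summed to 2216 and 2582 normalized counts in WT, 819 and 828 in KO-1 and 879 and 838 in KO-2 over 52 genes, of which 45 had under 100 normalized counts on average in both groups. They were lower in the KO libraries as a sum, with 1 gene called, H1f3 (−0.77), and 19 called lower by limma-voom. The part of RNA selection in these values was not tested.

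Germline genes, many of which DNA methylation silences, were split. Of 26 genes in the table, 6 were called higher and 3 lower, and by limma-voom 7 and 9. Sohlh2, a transcription factor of early germ cells, had the largest rise of all called genes. It had 143 and 149 normalized counts in WT, 4303 and 4287 in KO-1 and 4329 and 4092 in KO-2, a log2 fold change of 2.95 (SE 0.07, with a Benjamini-Hochberg adjusted p of 1.03e-16 in limma) and a ratio of 29.1. Piwil2, of the piRNA pathway, had 186 and 170.2 normalized counts in WT, 1008 and 1140.5 in KO-1 and 1050.2 and 1119 in KO-2 (1.31). Rpl10l, the testis form of a ribosomal protein, had 525 and 517 normalized counts in WT, 2033 and 1626 in KO-1 and 1788 and 1508 in KO-2 (1.12). Hormad1 (0.73), Tex11 (0.66) and Smc1b (0.59) were the other rises. Mael, also of the piRNA pathway, had 619 and 588 normalized counts in WT, 93.6 and 94.5 in KO-1 and 65.5 and 56.9 in KO-2 and was lower (−1.14), as were Tdrd1 (−0.80) and Mov10l1 (−0.75). The meiotic genes Stra8 (0.02), Sycp3 (−0.45) and Dazl (−0.11) were not called.

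The E-box CACGTG, which reads the same on both strands and is bound by Max and its partners at many germline genes, was found in 7.15% of all promoters. Per gene of the expression table it was found in 11% of all, 10.2% of those called higher, 14.5% of those called lower and 10.9% of those not called. Among germline genes with a promoter it was found in 1 of 4 called higher, in 3 of 3 called lower and in 8 of 16 not called. Hormad1, which rose, and Mael, which fell, both hold it, shown in capitals in the same window.
Hormad1, chr3:95559427-95559706, GRCm38.p6, plus strand: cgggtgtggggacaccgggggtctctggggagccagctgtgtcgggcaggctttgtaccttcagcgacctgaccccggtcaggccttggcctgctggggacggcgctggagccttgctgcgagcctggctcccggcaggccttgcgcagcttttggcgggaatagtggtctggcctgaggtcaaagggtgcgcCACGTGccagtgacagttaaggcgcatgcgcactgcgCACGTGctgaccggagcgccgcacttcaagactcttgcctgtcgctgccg
Mael, chr1:166238715-166238994, GRCm38.p6, minus strand: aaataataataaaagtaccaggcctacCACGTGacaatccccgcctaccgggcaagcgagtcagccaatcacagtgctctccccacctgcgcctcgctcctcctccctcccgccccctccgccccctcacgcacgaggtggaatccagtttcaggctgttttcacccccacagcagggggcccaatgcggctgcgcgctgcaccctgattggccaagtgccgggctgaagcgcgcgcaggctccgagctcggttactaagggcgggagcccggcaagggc

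Imprinted genes also moved in both directions, 5 of 20 higher and 3 lower, and by limma-voom 5 each way. Sfmbt2, a Polycomb group gene expressed from the paternal allele, had 645 and 789 normalized counts in WT, 5708 and 6493 in KO-1 and 8453 and 9022 in KO-2 (2.62). Peg10, a gene derived from a retrotransposon, had 5017 and 5721 normalized counts in WT, 32444 and 37613 in KO-1 and 31273 and 35254 in KO-2 (2.53). Mest (1.02), Impact (0.93) and Slc38a4 (0.87) rose less. The noncoding RNA gene Rian (−1.01), Grb10 (−0.94) and Dlk1 (−0.69) were lower, and H19 (−0.28) and Igf2 (−0.06) were not called.

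Of 15 cell cycle regulators, 5 were called higher and 0 lower, with 8 and 1 by limma-voom and 2 higher with quantile normalization. Rb1, the retinoblastoma gene that holds cells in G1, had 270.5 and 299.8 normalized counts in WT, 1077 and 1138 in KO-1 and 1109 and 1182 in KO-2 (1.09). The inhibitor genes Cdkn2a (0.83) and Cdkn1a (0.60), E2f1 (0.64) and Ccnd1 (0.60) were the others. Of 14 target genes of Trp53, 3 were higher, Trp53inp1 (1.11), Eda2r (0.86) and Cdkn1a, and 0 lower, with 5 and 1 by limma-voom and 5 higher after centring, while Mdm2 (0.53) and Bbc3 (0.02) were not called. In glycolysis 3 of 18 genes were higher and 3 lower, with 1 lower by quantile normalization. Among them were the genes for both main subunits of lactate dehydrogenase. Ldha had 51139 and 49549.7 normalized counts in WT, 26477 and 25246 in KO-1 and 24964 and 24484 in KO-2 (−0.98). Ldhb had 2817 and 2506 normalized counts in WT, 5878 and 4870.0 in KO-1 and 4672 and 4034 in KO-2 (0.73), so the subunits went opposite ways. Of 12 immediate early genes Egr1 and Fosb (0.72) were higher (by limma-voom 3 higher and 3 lower), of 11 lysosomal genes Rragd (0.72) and Sqstm1 (0.69), and of 11 genes of the Myc network 0 were called, with 8 at an unadjusted p under 0.05 and 1 called in each direction by limma-voom.

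The KO effect at day 2 was compared with that of the same lines at day 0 and day 4 by the interaction of genotype and day in the same fit. These comparisons share the libraries of day 2, so their counts are given side by side only. Between day 2 and day 0 the effect differed in 660 genes (3.19% of all genes), 430 (2.08%) more positive and 230 (1.11%) more negative at day 2. Of the naive network 10 of 15 were more positive and 0 more negative, of the formative genes 0 and 9 of 16, of the epithelial genes 0 and 7 of 12, and of the amino acid stress genes 1 and 5 of 12. At day 0, when 541 genes (2.61%) were called in all, the naive network had 2 genes called higher (1.73% of all genes were) and at day 4, when 1569 genes (7.58%) were called in all, it had 10 (3.67%), with 1 lower. For the formative genes the calls were 4 higher and 2 lower at day 0 (0.879% of all genes were lower) and 3 higher and 5 lower at day 4 (3.91%).

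The most negative differences between day 2 and day 0 were in the kinase gene Pim2 (−1.88), Fgf5 (−1.87), Zic2 (−1.83) and Nes (−1.77). The most positive were in Pecam1 (2.06), Sohlh2 (1.79), Klf2 (1.76) and mt-Rnr2 (1.71). Zic2 had a KO effect of 1.36 at day 0 and −0.46 at day 2, and Nes of 0.68 and −1.09, so both changed sign. Pecam1 went from −1.79 at day 0 to 0.27 at day 2. In WT, Pecam1, an adhesion molecule of naive cells and endothelium, had a mean of 2174 normalized counts at day 0 and of 211 at day 2, and in KO of 292 and 339.6. The KO lines thus differed from WT in Pecam1 before differentiation, and at day 2 the WT mean was below the KO mean.

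**Figure D5:**
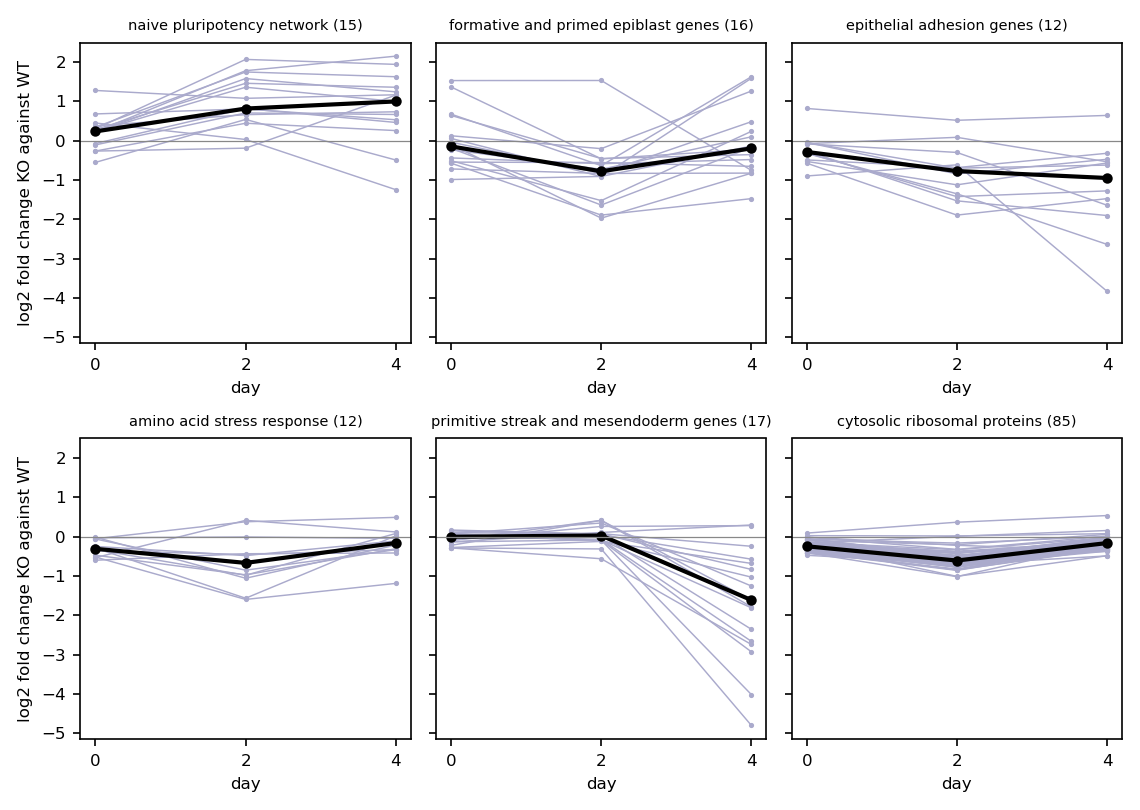
Log2 fold change of KO against WT (VST scale) at day 0, 2 and 4 for the members of 6 gene lists (thin lines, 1 gene each) and their medians (thick lines), number of members in brackets. The median of the formative genes is lowest at day 2 (−0.78), that of the naive network is 0.82 at day 2 and 1.00 at day 4, and that of the primitive streak genes is 0.03 at day 2 and −1.61 at day 4.

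Between day 4 and day 2 the effect differed in 1328 genes (6.41%), 445 (2.15%) more positive and 883 (4.27%) more negative at day 4. Fn1 (−4.58), T (−4.49), Mixl1 (−3.93) and Igfbp3 (−3.63) had the most negative differences. Fn1, called higher at day 2 (2.01), had a log2 fold change of −2.57 at day 4, when its mean in WT was 51593 normalized counts. Trh, the thyrotropin releasing hormone gene (3.17), the ubiquitin ligase gene Mkrn1 (2.51), Sall2 (2.50) and Pim2 (2.46) had the most positive differences. Of the 17 primitive streak genes, 13 were more negative at day 4 than at day 2, and of the 20 cytosolic synthetase genes 9 were more positive.

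Few genes were called when the clones of day 2 were compared with each other. Against WT, in a fit of 9 groups of line and day, 1138 genes were called in KO-1 and 1537 in KO-2, comparisons that share the WT libraries. The clones themselves differed in 9 genes (0.0435%), 6 higher and 3 lower in KO-1, by limma with Benjamini-Hochberg adjustment, and in 0 when the 4 KO libraries were fitted alone, where 2462 had an unadjusted p under 0.05. The largest were Trh (1.20), the glutathione peroxidase gene Gpx4 (0.76), Otx2 (0.74) and Xlr3c (0.64), higher in KO-1, and Grb10 (−0.78), H13 (−0.75) and Prtg (−0.67), lower. Trh had 1989.6 and 1935 normalized counts in WT, 1979 and 1684 in KO-1 and 513 and 505 in KO-2, so KO-1 was at the WT level and KO-2 below it. Grb10 had 4581 and 4770.0 normalized counts in WT, 1509 and 1521 in KO-1 and 2966 and 3045 in KO-2, and in H13 the KO-2 libraries were at the WT level (1112 and 1016 against 953 and 877) and the KO-1 libraries below it (472 and 402). Cldn6 (0.60) and Ephx2 (0.62) were the other 2 genes higher in KO-1. Leaving out KO-2 replicate 2 ended the calls of Cldn6 (0.54), Ephx2 (0.57), Gpx4 (0.63) and Prtg (−0.63), and leaving out KO-1 replicate 1 those of Cldn6 (0.57), Gpx4 (0.60) and Prtg (−0.55). Gpx4 was also lost without KO-1 replicate 2 (0.91) or KO-2 replicate 1 (0.88). A block by replicate number gave 8 genes that differed between the clones, 5 higher and 3 lower in KO-1.

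Among the genes named above as higher or lower at day 2, some calls rested on 1 library, 1 clone, the scaling or the depth. Without KO-1 replicate 1 these were Cdkn1a (0.57) and Smc1b (0.56). Leaving out KO-1 replicate 2 ended the calls of Cdkn1a (0.56) and Smc1b (0.57). Without KO-2 replicate 1 these were Foxh1 (0.57) and Pim3 (0.56). Leaving out KO-2 replicate 2 ended the calls of Foxh1 (0.57), Furin (0.58) and Tet3 (0.56). Without WT replicate 1 these were Acvr2b (0.58), Foxh1 (0.56), Furin (0.50), Grb10 (−0.96), Krt19 (−0.58), Rpl17 (−0.72), Rps7 (−0.74), Smc1b (0.52), Tead2 (−0.56) and Uqcrq (−0.57). Leaving out WT replicate 2 ended the calls of Ccnd1 (0.53), Cdkn1a (0.57), Grb10 (−0.91), Kdm2b (−0.57), Sox21 (0.57) and Zscan4c (−0.55). In 1 clone alone against WT, KO-1 lost Cdh1 (−0.56), Foxh1 (0.55), Furin (0.54), Gbx2 (0.56), Kdm2b (−0.57), Mrpl12 (−0.55), Mrps9 (−0.58), Ndufb8 (−0.58), Pim3 (0.57), Pou5f1 (−0.58) and Tet3 (0.47). KO-2 lost Cdkn1a (0.49), Fosb (0.56), Grb10 (−0.55), Krt19 (−0.54), Nanog (0.47), Smc1b (0.52) and Sox21 (0.58). Quantile normalization ended the calls of Ccnd1 (0.49), Cdh1 (−0.54), Cdkn1a (0.51), Dnmt3b (−0.33), E2f1 (0.54), Foxh1 (0.46), Furin (0.50), Pim3 (0.50) and Tet3 (0.53), and centring those of Kdm2b (−0.57), Krt19 (−0.56), Mrps9 (−0.56), Tead2 (−0.53) and Zscan4c (−0.56). With the 6 libraries alone, Nanog (0.70), Grb10 (−0.94) and Rpl17 (−0.85) missed the adjusted p. The VST of counts thinned to the lowest depth ended the calls of Cdkn1a (0.57), Foxh1 (0.56), Smc1b (0.56) and Tead2 (−0.57).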

How the data were processed

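RNA was measured in 18 libraries of E14 mESCs, from WT cells and the KO-1 and KO-2 clones, with 2 replicates each at day 0, 2 and 4. The study's methods state poly(A) libraries, and the submitters' processing notes name Trim Galore 0.6.7, STAR 2.7.11a, featureCounts 2.0.6, DESeq2 1.42.0 and mm39. The deposited values are on a log2 scale, the variance stabilizing transformation (VST) that the authors computed with DESeq2 from gene counts. The table deposited by the authors holds 20703 genes. The transformation was inverted per library, and within 0.02 all values came out as whole counts, with totals from 9309874 to 23921193. Of the recovered counts from 1 to 20, 72.5% to 77.5% per library were even, as counts of both reads of a pair would be. The study's methods state that read fragments on exons were counted, and the reason for the even counts is not given in the sources used here. A count may thus not stand for 1 fragment, as limma-voom on these counts takes it to.

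KO and WT were compared with limma 3.58.1 in R 4.3.3 on the VST values of all 18 libraries, in 6 groups by genotype and day, a trended prior variance and Benjamini-Hochberg adjustment over 20703 genes. The study's own DESeq2 test of counts was not run. A call required an adjusted p below 0.01 together with a log2 fold change beyond 0.58 in either direction. The effect of KO was compared between days by interaction contrasts in that fit, and KO-1 with KO-2 in a fit of 9 groups. With 4 against 2 libraries, an exact permutation test of 1 gene could not go below p = 0.0667, so none was used. Alternatives were other samples in the fit, a replicate block, a filter on low values, other scalings, thinned counts, limma-voom on the recovered counts, other thresholds and each library of day 2 left out. Leaving out a WT library, or a KO library in the fit of 9 groups, left 1 library in its group. The spread then came from the other groups of the fit.

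The comparison, the 33 gene lists and the 6 gene families (less H1f10, which the histone pattern had also matched) were chosen with earlier results of these data known, and the synthetase families and promoter motifs after these values were seen. By rule, the genes named were Nsd1, the 12 largest rises and falls, up to 4 called genes per list (or the 2 with the highest mean VST value where fewer than 2 were called), and the 4 largest differences in each direction between days and between clones. Other list members, and those not called, were picked after their values were seen. Some results, the calls of 1 gene list among them, are not reported here. Promoters came from RefSeq on GRCm38.p6, matched by Ensembl gene identifier and then by identical symbol, for 13452 of the 20703 genes. No coordinates were converted. The tables and figures were made with Python 3.11.15, pandas 2.3.3, numpy 2.4.6 and matplotlib 3.10.9, and the fit was tested on simulated data.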

Additional observations from a re-analysis of the deposited data

Results flagged for a closer look

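The effect of KO on a gene differed between day 2 and day 0 in 660 genes by the interaction of genotype and day (limma with Benjamini-Hochberg adjustment). The differences on the log2 scale, day 2 minus day 0, were 2.06 for Pecam1, 1.79 for Sohlh2, 1.76 for Klf2 and 1.71 for mt-Rnr2. They were −1.88 for Pim2, −1.87 for Fgf5, −1.83 for Zic2 and −1.77 for Nes. Between day 4 and day 2 the effect differed in 1328 genes. Fn1 (−4.58), T (−4.49), Mixl1 (−3.93) and Igfbp3 (−3.63) were more negative at day 4. Trh (3.17), Mkrn1 (2.51), Sall2 (2.50) and Pim2 (2.46) were more positive at day 4.

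The clones differed in 9 genes at day 2. KO-1 minus KO-2 was 1.20 for Trh, 0.757 for Gpx4, 0.740 for Otx2 and 0.636 for Xlr3c, and −0.776 for Grb10, −0.751 for H13 and −0.673 for Prtg.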

How the results depend on the processing

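No alternative turned the sign of a called gene named by rule, but limma-voom turned the balance of calls, from 62.9% higher to 43.2%, and to 44.1% on thinned counts. The 831 higher and 490 lower genes of day 2 became 2136 and 2813 (4949 together) with limma-voom on the recovered counts, 2241 and 2845 (5086) with limma-voom on thinned counts, and 212 and 65 (277) with an absolute log2 fold change over 1. For day 2 against day 0, limma-voom called 847 and 673 (1520), on thinned counts 891 and 680 (1571), the larger fold change 93 and 39 (132), and KO-2 alone 1002, with 395 lower. For day 4 against day 2 the numbers were 1400 and 1466 (2866), 1230 and 1436 (2666), and 82 and 290 (372). Between the clones they were 29 and 19 (48), 17 and 11 (28), 1 and 0 (1), and 0 and 0 (0) with the 4 KO libraries of day 2 fitted alone. The VST compresses low counts, so limma-voom gives larger fold changes there; no other cause was tested. Leaving out 1 library gave 1190 to 1431 genes at day 2 (784 to 890 higher, 406 to 546 lower), 606 to 709 for day 2 against day 0 (392 to 471, 214 to 238), 1278 to 1366 for day 4 against day 2 (422 to 468, 856 to 898) and 6 to 10 between the clones (3 to 6, 2 to 4). Of 116 called genes named by rule, 64 were past the larger fold change, 106 in KO-1 alone and 109 in the 6 libraries alone. The number was 107 without WT replicate 1 and 110 to 116 under every other alternative tallied. The fit of the 4 KO libraries alone was not part of this tally.

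With the replicate block, 831 genes were higher and 484 lower, and 831 and 486 with 1 block per day, which was added after the data were seen. The differences between replicates 1 and 2 of day 2 correlated between the lines (r = 0.48, 0.37 and 0.432 over 10228 genes), but the labels do not say that equal numbers share a batch, so no pairing was assumed. Thinning all libraries to the lowest depth before the VST left 1314 calls. The called gene with the fewest counts had a mean of 20.6 normalized counts, and the median was 831 over called genes and 85.6 over all genes.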
